A study of Homo sapiens with 30 samples.

Results

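The genes described here are 10 genes of the Notch signaling pathway: the ligand JAG1, the ligand ubiquitin ligase MIB1, the receptors NOTCH1 and NOTCH2, the Deltex genes DTX2, DTX3 and DTX4, the nuclear proteins RBPJ and MAML2, and the target gene HES1. They are 10 of 60675 genes listed in the overexpression series and of 58051 listed in the knockout series, and they were chosen by a measured value of these data, the log2 fold change of DTX4 between Molm-14 KO and EV. At 1.75 it was the largest among the 99 genes that passed the test as higher in Molm-14 KO and averaged 100 counts or more over the 6 Molm-14 libraries. The next gene in that order, C12orf75, was at 1.52, and 23 genes with fewer counts had a larger log2 fold change than DTX4. For that reason every value of the Molm-14 KO against EV comparison is given here as a description, with no test.

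The study sequenced RNA of cell lines from human acute myeloid leukemia (AML), in 30 libraries and 3 per group. In the overexpression series (12 libraries), MV4-11 and Molm-14 cells carried a GFP lentivector that expresses the MIR1-2 hairpin from an EF1α promoter (miR-1 OE) or the empty vector (EV). In the knockout series (18 libraries), MPC1, a subunit of the mitochondrial pyruvate carrier, was knocked out (KO) in THP-1 as well as MV4-11 and Molm-14, each line having its own EV control. The study's methods give a lentiCRISPRv2 construct with a GFP marker and a single guide for all 3 lines. MV4-11 and Molm-14 carry an internal tandem duplication of FLT3, and THP-1 is a monocytic line without it. The controls of each series carried a vector too. The labels do not say whether the 3 libraries of a group came from separate cultures, so every p-value measures the spread between these libraries alone.

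Notch receptors are single-pass membrane proteins that are activated when a Jagged or Delta ligand on a neighboring cell pulls on them. Mind bomb ligases such as MIB1 ubiquitinate the ligand so that it can pull, and after cleavage by ADAM proteases and γ-secretase the intracellular part of the receptor enters the nucleus, binds RBPJ and recruits a Mastermind coactivator such as MAML2 to switch on genes including HES1. Deltex proteins are E3 ubiquitin ligases, some of which bind the intracellular part of Notch and act on its trafficking. In blood formation Notch signaling is best known for directing T cell fate.

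Libraries held 15543301 to 20939985 counts in the overexpression series and 5339360 to 9106478 counts in the knockout series. MPC1 separated the KO from the EV libraries of each line without overlap (log2 fold change of -1.18 in MV4-11, -1.04 in Molm-14 and -0.84 in THP-1). Of 8 myeloid markers, 7 were at 1 count-per-million (CPM) or more in each MV4-11 and Molm-14 group and all 8 in THP-1, the marker below that level being CD14. The 4 T cell markers summed to at most 0.469 CPM in any library, and the B cell, stromal and endothelial lists to at most 2.26, 0.923 and 2.03 CPM.

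The miRNA that was overexpressed is itself tied to this gene set by position. The MIR1-2 hairpin lies in an intron of MIB1 (chr18:21704957-21870953, plus strand, GRCh38), on the opposite strand, inside the noncoding host gene MIR133A1HG. The mature miRNA hsa-miR-1-3p (RefSeq, GRCh38.p14, chr18:21829015-21829036, minus strand) is shown because its seed, bases 2 to 8 in capitals, sets which transcripts it can pair with.
hsa-miR-1-3p: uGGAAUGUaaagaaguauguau

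MIR133A1HG was counted 44, 50 and 73 times in MV4-11 OE and 60, 44 and 34 times in Molm-14 OE, with 0 counts in all 6 EV libraries of that series and in all 18 libraries of the knockout series. With 0 counts, a level of up to 0.189 CPM is allowed in the EV libraries of the overexpression series, for counting error only. MIR133A1HG is annotated on the strand opposite to MIB1, whose own counts were between 2488 and 3476 in the same series. The study's methods state that the OE lentivector holds sequence of the hairpin's host gene. Whether the MIR133A1HG counts came from the vector or from the chromosomal locus was not tested.

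A match to the seed of miR-1 was looked for in each gene's 3′ UTR (canonical transcript, GENCODE release 44), as ACATTCCA (8mer), ACATTCC (7mer-m8) or CATTCCA (7mer-A1), on the transcript strand. NOTCH2 and MAML2 held matches and the other 8 genes held none, so 20% of the 10 genes had a match, against 19.9% of 19538 protein-coding 3′ UTRs. None of the matches was an 8mer, a form that 4.82% of all 3′ UTRs hold. The 5 matches are printed on the transcript strand (the minus strand of GRCh38 for both genes) with their surroundings, capitals marking the match, because they are the places where the overexpressed miRNA could pair with these genes.
NOTCH2, 7mer-A1, chr1:119914254-119914283: ttcctgccaagCATTCCAttgactgcctgt
NOTCH2, 7mer-m8, chr1:119913776-119913805: aagcggccatgACATTCCctttggcaacta
NOTCH2, 7mer-m8, chr1:119911663-119911692: attggtttgtaACATTCCttaagtgaaatt
MAML2, 7mer-A1, chr11:95978218-95978247: atatctgaatcCATTCCAaatgaaatttta
MAML2, 7mer-A1, chr11:95977009-95977038: caataagaaagCATTCCAggtttcaatcct

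The core of the sequence that RBPJ binds, TGGGAA on either strand, was looked for in the 300 bases around each start site (250 before to 50 after) in the RefSeq promoter table, which holds 9 of the 10 genes. HES1 and DTX2 held it, which is 22.2% of the 9 genes, against 24% of 35116 promoters. HES1, a textbook RBPJ target, held 2 copies close together, starting 84 and 70 bases before its start site. The first of them had the longer form GTGGGAA, which is in 6.25% of all promoters. No TGGGAA was in the DTX4 window. The stretches are shown on the plus strand of GRCh38.p14 with the core in capitals.
HES1, chr3:194136052-194136081: tgaaagttactgTGGGAAagaaagtttggg
HES1, chr3:194136066-194136095: ggaaagaaagttTGGGAAgtttcacacgag
DTX2, chr7:76461638-76461667: ccgggactacatTTCCCAgaaggccgcacg

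The lines differed first of all in which parts of the pathway they transcribed. Levels are compared between genes as CPM per kilobase of canonical transcript (FPKM). In MV4-11 EV of the overexpression series, NOTCH1 (chr9:136494433-136546048) was the highest of the 10 genes at 36 ± 1.54 FPKM (SD, n = 3), followed by NOTCH2 (chr1:119911553-120100779) at 30.4 ± 1.97 and RBPJ (chr4:26163455-26435131) at 25.4 ± 0.844. DTX4 at 19 ± 1.62, DTX2 at 17 ± 2.05 and MIB1 at 15.7 ± 0.245 FPKM came next, and neighbors within these 3 had mean ± SD ranges that met. HES1, JAG1 (chr20:10637684-10673999), MAML2 and DTX3 were all below 1 FPKM.

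In Molm-14 EV of the same series the ligand JAG1 was at the top, at 56.3 ± 1.35 FPKM, just above RBPJ at 51.5 ± 1.59. NOTCH2, NOTCH1, DTX2 and MIB1 lay between 24.3 and 16.7 FPKM, in that order and with ranges that did not meet. HES1 (chr3) was at 4.83 ± 0.584 FPKM, DTX4 (chr11:59171430-59208588) at 2.61 ± 0.0672 and MAML2 (chr11:95976598-96343195) at 0.866 ± 0.156.

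Libraries of the knockout series were counted in a separate table, and their levels are not set against the first series. In MV4-11 EV of that series RBPJ and MIB1 led at 28.8 ± 1.98 and 26.4 ± 0.99 FPKM, with ranges that met. NOTCH1 was at 5.1 ± 0.615 FPKM there, below RBPJ, MIB1, NOTCH2 and DTX4, and DTX2 was at 2.98 ± 0.624. The order of the genes in MV4-11 EV, with NOTCH1 at the top, thus did not repeat between the series. The cause was not tested. In Molm-14 EV the order again began with JAG1 at 64.6 ± 1 and RBPJ at 49.1 ± 2.25 FPKM. In THP-1 EV the order began with RBPJ at 51.5 ± 1.66, NOTCH2 at 30.6 ± 6.05 and MIB1 at 22.1 ± 0.771 FPKM, and the ligand JAG1 was at 1.39 ± 0.227 FPKM. DTX4, at 7.25 ± 1.15 FPKM in MV4-11 EV, was at 1.96 ± 0.271 in Molm-14 EV and 1.05 ± 0.0302 in THP-1 EV.

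**Figure D1:**
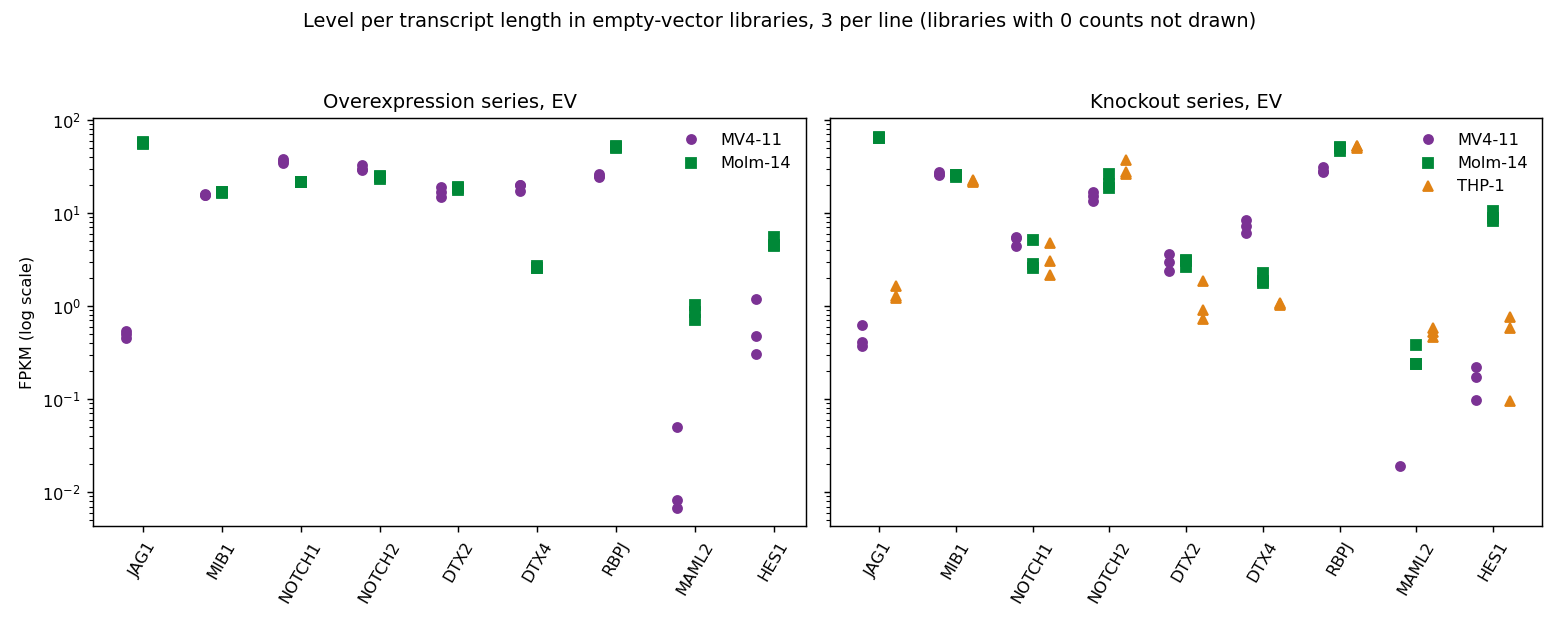
FPKM (log scale) of 9 genes in each empty-vector library, overexpression series at left and knockout series at right, with circles for MV4-11, squares for Molm-14 and triangles for THP-1. JAG1 in Molm-14 sits at 56.3 and 64.6 FPKM on average in the left and right panels, where MV4-11 sits at 0.499 and 0.467.

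Deltex genes other than these were part of the check. DTX1 had 0 counts in all 30 libraries, and DTX3L, which lies outside the 10 genes, was at 60.8 to 112.2 CPM in the EV libraries. DTX3 (chr12:57604622-57609804) had 0 to 6 counts per library in the overexpression series and 0 or 1 counts in MV4-11 and Molm-14 of the knockout series. In THP-1, DTX3 had 9, 11 and 4 counts in EV and 7, 16 and 5 in KO. It did not pass the filter on low counts in either series and was not tested, which leaves 9 of the 10 genes with a test.

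Which pathway genes differ between the lines before any manipulation was tested between EV groups, with edgeR's quasi-likelihood test at a false discovery rate (FDR, Benjamini-Hochberg) of 5%. Between Molm-14 and MV4-11 in the overexpression series, 7 of the 9 genes passed, 4 higher and 3 lower in Molm-14, against a background in which 64.8% of 17542 genes passed, 31.9% higher and 32.9% lower. Between THP-1 and MV4-11 in the knockout series, 8 of 9 passed, 5 higher and 3 lower in THP-1, against 67.5% of 14490 genes, 34.6% higher and 32.9% lower. Most genes differ between these lines, so the counts say little about these genes, and the sizes carry the description. The MV4-11 EV libraries of the knockout series also serve as the control of the MV4-11 KO comparison below. Fewer cells that express a gene and less RNA of it per cell cannot be told apart in such bulk libraries.

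JAG1, the ligand, differed most between Molm-14 and MV4-11 among the 9 genes. It was at 3.19, 2.7 and 3 CPM in MV4-11 EV and at 334.0, 342.4 and 326.3 CPM in Molm-14 EV, a log2 fold change of 6.82 (SE 0.0748, adjusted p = 1.51e-22 by edgeR). In the knockout series JAG1 was at 2.21, 2.42 and 3.7 CPM in MV4-11 EV, 7.31, 7.62 and 9.78 CPM in THP-1 EV and 389.5, 383.5 and 377.5 CPM in Molm-14 EV. The THP-1 libraries all lay above the MV4-11 libraries (log2 fold change 1.58, SE 0.182, adjusted p = 1.78e-08 by edgeR).

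Other Notch ligands of the pathway list also differed in level between lines, as most genes did. DLL1 was higher in Molm-14 than in MV4-11 by 7.22 on the log2 scale (SE 0.16), at 122.6, 119.1 and 128.3 CPM against 0.579, 0.627 and 1.3 CPM. JAG2 went the other way, at a log2 fold change of -2.76 (SE 0.163), with 3.66, 2.99 and 3.92 CPM in Molm-14 EV and 23.5, 19.8 and 28.7 CPM in MV4-11 EV. In THP-1 all 4 ligands that could be tested were higher than in MV4-11, led by DLL4 at a log2 fold change of 4.20.

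The receptors NOTCH1 and NOTCH2 differed less. NOTCH1 was at 204.0, 205.9 and 207.0 CPM in Molm-14 EV and 359.5, 342.6 and 330.1 CPM in MV4-11 EV, a log2 fold change of -0.74 (SE 0.052). NOTCH2 was lower in Molm-14 by a smaller amount, -0.32 on the log2 scale (SE 0.0555). NOTCH4, a receptor of the wider list, had 2, 3 and 2 counts in Molm-14 EV and 13, 19 and 22 in MV4-11 EV (log2 fold change -2.75, SE 0.693, adjusted p = 0.00176 by edgeR). In THP-1, NOTCH2 was at 303.6, 316.1 and 429.1 CPM against 152.5, 189.4 and 174.4 CPM in MV4-11 EV (log2 fold change 1.02, SE 0.137), whereas NOTCH1 was not called (-0.63, SE 0.336, adjusted p = 0.113 by edgeR). Copies of the start of NOTCH2 such as NOTCH2NLA and NOTCH2NLC share sequence with it, and had at most 58 and 330 counts in a library of the overexpression series, against 4185 or more for NOTCH2.

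DTX4 was higher in MV4-11 than in the other lines. In the overexpression series it was at 119.0, 119.7 and 102.6 CPM in MV4-11 EV and 15.3, 16.1 and 15.6 CPM in Molm-14 EV (log2 fold change -2.86, SE 0.0989, adjusted p = 2.57e-14 by edgeR). In the knockout series it was at 36.4, 50.2 and 43.9 CPM in MV4-11 EV and 6.52, 6.28 and 6.16 CPM in THP-1 EV (-2.78, SE 0.148, adjusted p = 2.66e-15 by edgeR). DTX2 (chr7:76461676-76505995) did not pass between Molm-14 and MV4-11 (0.11, SE 0.0827, adjusted p = 0.246 by edgeR) and was lower in THP-1 than in MV4-11 (-1.39, SE 0.292). The pseudogene DTX2P1 shares sequence with DTX2 and had 25 to 63 counts in the overexpression series (the read-through transcript DTX2P1-UPK3BP1-PMS2P11 had 113 to 190), where DTX2 had 662 to 1063.

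RBPJ and MAML2, the nuclear genes described here, were higher in Molm-14 and THP-1 than in MV4-11. Among the nuclear coactivators of the wider list, which include both, 4 passed as higher and 3 as lower in Molm-14. In THP-1, 3 passed as higher and 3 as lower. MAML1 was among the lower genes in Molm-14 (-0.47, SE 0.059) and in THP-1 (-0.69, SE 0.152). RBPJ, the DNA-binding protein of the pathway, was at 279.2, 268.9 and 286.0 CPM in Molm-14 EV and 133.0, 142.0 and 136.8 CPM in MV4-11 EV (log2 fold change 1.02, SE 0.0464). It was higher in THP-1 than in MV4-11 by 0.84 (SE 0.0763). MAML2, a coactivator, was near its detection limit in MV4-11, with 1, 1 and 6 counts in EV of the overexpression series and 0, 1 and 0 in EV of the knockout series. Molm-14 EV had 115, 104 and 86 counts, a ratio of summed depth-scaled counts of 42.2 (95% interval 21.1 to 98.6, counting error only). THP-1 EV had 28, 22 and 23 counts, a ratio of 83.4 to MV4-11 EV (14.5 to 3337.4).

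HES1, which represses its own and other genes and is read as an output of Notch, was at 7.13, 8.67 and 7.02 CPM in Molm-14 EV and 0.753, 0.482 and 1.89 CPM in MV4-11 EV (log2 fold change 2.90, SE 0.429, adjusted p = 5.46e-05 by edgeR). In the knockout series HES1 had 98, 114 and 106 counts in Molm-14 EV, 3, 2 and 1 in MV4-11 EV and 9, 1 and 5 in THP-1 EV. The difference between THP-1 and MV4-11 passed narrowly (1.45, SE 0.645, adjusted p = 0.0486 by edgeR) with overlapping groups, and it did not pass without THP-1 EV replicate 1 (0.84, adjusted p = 0.358), THP-1 EV replicate 3 or any single MV4-11 EV replicate (adjusted p of 0.0586 to 0.123). With no filter on low counts this HES1 difference did not pass either (1.48, adjusted p = 0.0648 by edgeR). The other targets of the list that were called moved in both directions. HEYL was lower in Molm-14 EV than in MV4-11 EV (-6.16, SE 0.332), as were NRARP (-1.58, SE 0.142) and HES6 (-0.75, SE 0.131), whereas HES4 (0.67, SE 0.291) and MYC (0.33, SE 0.0478) were higher.

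MIB1 was nearly level across lines. It was at 167.2, 167.8 and 170.7 CPM in Molm-14 EV and 160.5, 158.7 and 155.7 CPM in MV4-11 EV (0.09, SE 0.0433, adjusted p = 0.0742 by edgeR), and lower in THP-1 than in MV4-11 by -0.26 (SE 0.071) on the log2 scale.

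A wider list of 78 pathway genes was described beside the 10, which it includes. Of the 68 that could be tested, 54 (79.4%) passed between Molm-14 and MV4-11, beside 64.8% of all genes. Of these 54, 24 were higher and 30 lower, and the median log2 fold change of the 68 was -0.09. In the list 7 of 9 receptor glycosylation genes were lower in Molm-14 and 1 was higher, where 32.9% of all genes were lower. No role was tested as a set, and all 3 tested receptors were lower in Molm-14 too. Among the 7 glycosylation genes was LFNG, which modifies the Notch receptor (-0.79, SE 0.223). In the γ-secretase group PSEN2 (-4.10, SE 0.34) was lower and NCSTN (0.58, SE 0.0539) higher. Between THP-1 and MV4-11, 50 of 67 passed (74.6%), 28 higher and 22 lower, beside 67.5% of all genes. PSEN2 (3.68, SE 0.213) and the ubiquitin ligase NEDD4L (4.78, SE 0.256) were among the higher and LFNG (-2.20, SE 0.293) among the lower. Of the 9 receptor glycosylation genes 4 were lower in THP-1 and 1 was higher, where 32.9% of all genes were lower.

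**Figure D2:**
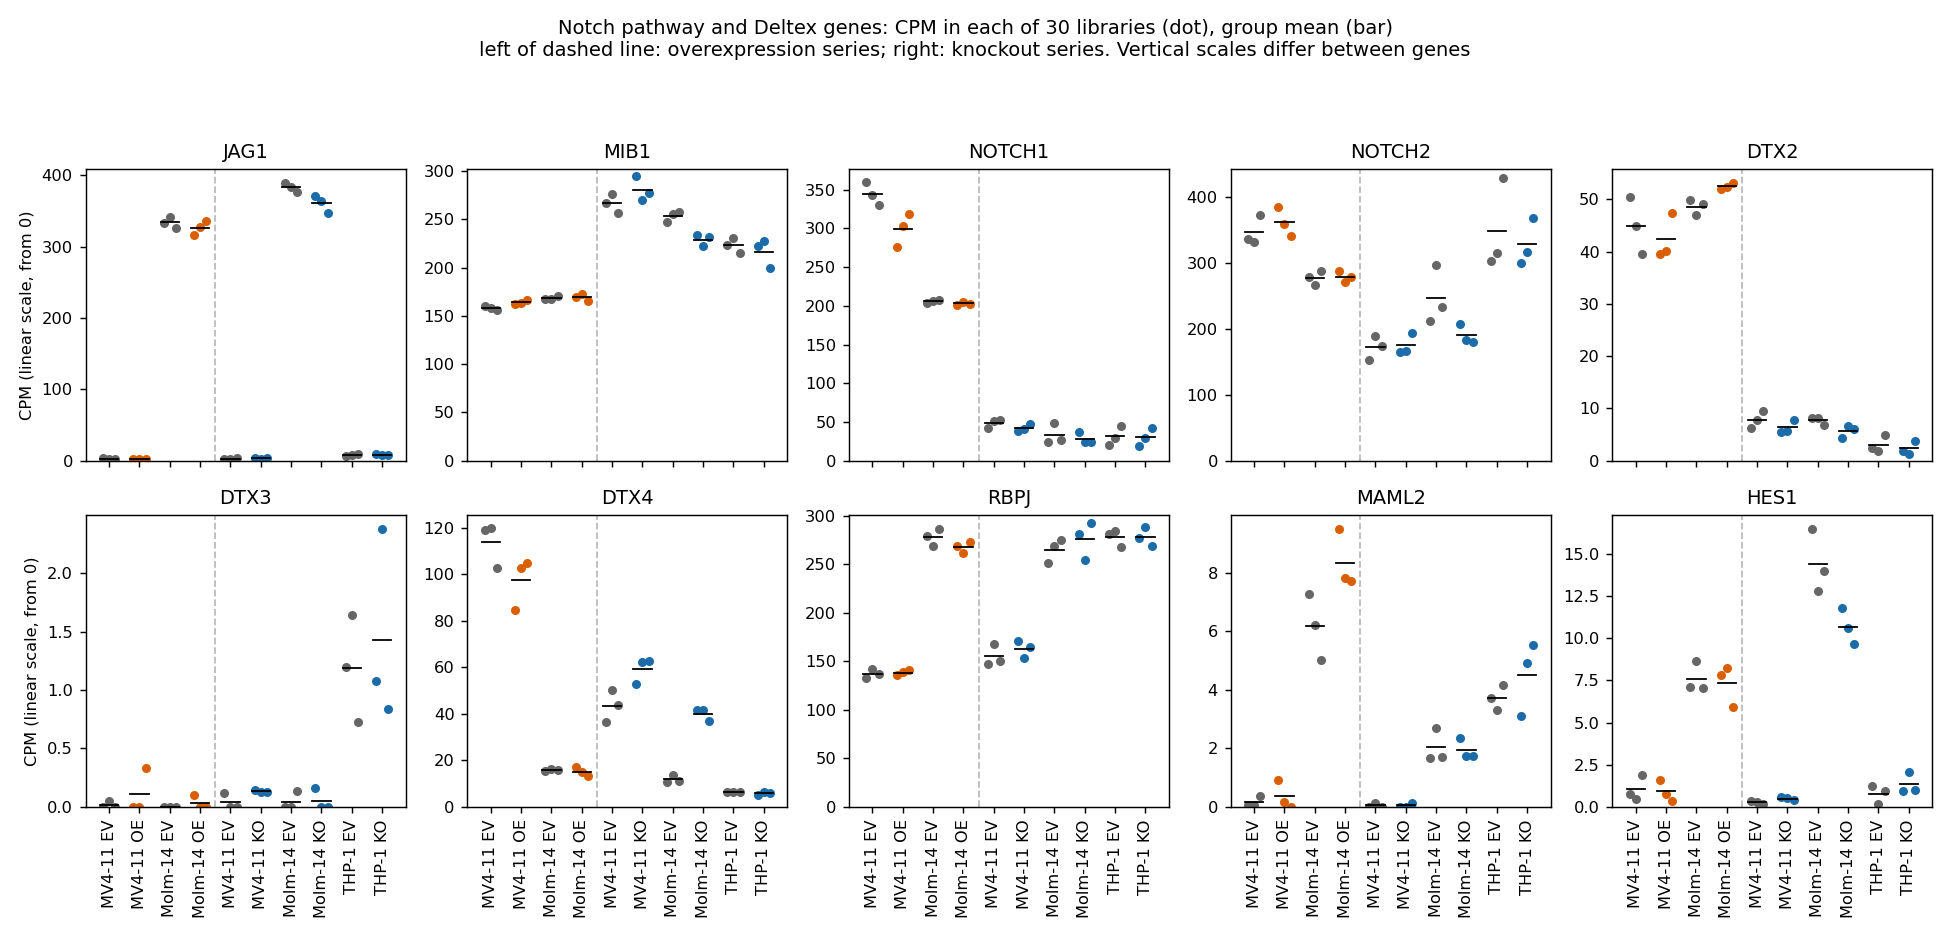
CPM of each of the 10 genes in every library (dots), with the group mean as a bar, overexpression series left of the dashed line and knockout series right of it, in grey for EV, orange for OE and blue for KO. DTX4 in Molm-14 stands at 10.6 to 13.6 CPM in EV and 36.7 to 41.6 CPM in KO, and in THP-1 both groups stay below 7 CPM.

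Whether miR-1 overexpression alters the pathway was examined next. None of the 9 genes passed the test in MV4-11 OE against EV, where 0.177% of all genes passed, by edgeR or by DESeq2. Of the 9, 2 had an unadjusted p under 0.05 by edgeR, beside 1035 of all 17542 genes. None passed in Molm-14, where 0.0057% of all genes did, by either tool. There none of the 9 had an unadjusted p under 0.05 by edgeR, beside 768 of all 17542 genes. The median log2 fold change of the 9 genes was -0.05 in MV4-11 and -0.02 in Molm-14, beside 0.007 and 0.000 over all genes.

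NOTCH1 was the gene with the smallest p in MV4-11. It was at 276.5, 302.5 and 318.9 CPM in OE and 359.5, 342.6 and 330.1 CPM in EV, so every OE library lay below every EV library. The log2 fold change was -0.20 (SE 0.0514, adjusted p = 0.175 by edgeR), and with all genes kept that had a count in any library it was -0.21 with an adjusted p of 0.0474. In Molm-14 NOTCH1 was at 201.4, 205.6 and 202.8 CPM in OE and 204.0, 205.9 and 207.0 CPM in EV, groups that overlapped (-0.02, SE 0.0521).

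DTX4 in MV4-11 was at 84.8, 102.9 and 104.8 CPM in OE and 119.0, 119.7 and 102.6 CPM in EV (-0.22, SE 0.0851, adjusted p = 0.681 by edgeR), and the groups overlapped. In Molm-14 it was at 17.1, 14.9 and 13.2 CPM in OE and 15.3, 16.1 and 15.6 CPM in EV (-0.05, SE 0.11). The 2 genes with seed matches did not pass. NOTCH2, with the 3 matches printed above, was at 386.2, 359.7 and 341.9 CPM in MV4-11 OE and 336.3, 332.4 and 373.1 CPM in EV (0.06, SE 0.0552), and at 0.01 (SE 0.0556) in Molm-14. MAML2 had 194, 132 and 116 counts in Molm-14 OE and 115, 104 and 86 in EV (0.44, SE 0.4), and 15, 3 and 0 counts in MV4-11 OE beside 1, 1 and 6 in EV, groups that overlapped.

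MIB1, whose intron holds the MIR1-2 locus, was at 162.8, 163.0 and 166.3 CPM in MV4-11 OE, above each of the 3 EV libraries, with a log2 fold change of 0.05 (SE 0.0433, not called). In Molm-14 it was at 0.01 (SE 0.0433). Groups of 2 of the 9 genes did not overlap in MV4-11 (NOTCH1 below and MIB1 above) and of 2 in Molm-14 (DTX2 and MAML2 above), against 9.17% and 14.9% of all genes. JAG1, RBPJ and HES1 overlapped between OE and EV in both lines, with log2 fold changes between -0.18 and 0.01.

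Of the 68 pathway genes tested, none passed in MV4-11 OE or in Molm-14 OE by edgeR, and DESeq2 called 1 and 0. By edgeR 6 and 5 of the 68 had an unadjusted p under 0.05, beside 1035 and 768 of all 17542 genes. The difference of the OE effect between the lines passed for none of the 9 genes by edgeR or DESeq2, where 0.0456% of all genes passed. Among the 9, NOTCH1 had the only unadjusted p under 0.05 (0.18, SE 0.0732, adjusted p = 0.83 by edgeR), beside 929 of all 17542 genes.

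How loss of MPC1 bears on the pathway was examined in the knockout series. In MV4-11, DTX4 was the 1 gene of 9 that passed, against a background of 5.41% of all genes, 3.17% in the higher direction. It was at 36.4, 50.2 and 43.9 CPM in EV and 52.9, 62.2 and 62.6 CPM in KO, so every KO library lay above every EV library. The log2 fold change was 0.45 (SE 0.114, adjusted p = 0.021 by edgeR), a 1.36-fold rise.

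This call was close to the threshold. DESeq2 gave an adjusted p of 0.0267, but the adjusted p was 0.0681 without EV replicate 1, 0.0955 without EV replicate 3, 0.0778 without KO replicate 2, 0.0575 without KO replicate 3 and 0.0784 when only the MV4-11 groups were fitted, with log2 fold changes of 0.33 to 0.46.

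The other genes of the 9 did not pass in MV4-11. Their log2 fold changes were 0.21 (SE 0.213) for JAG1, 0.08 (SE 0.0704) for MIB1 and 0.07 (SE 0.0765) for RBPJ. NOTCH1 was at 42.1, 51.2 and 53.2 CPM in EV and 38.8, 40.9 and 47.1 CPM in KO, groups that overlapped (-0.20, SE 0.324). DTX2 had 54, 58 and 62 counts in EV and 39, 46 and 62 in KO (-0.29, SE 0.248). HES1 was too low to be measured well, with 3, 2 and 1 counts in EV and 4, 4 and 3 in KO, a ratio of 1.8 with a counting interval of 0.61 to 5.92. Groups did not overlap for DTX4 and HES1, 2 of 9, against 24.1% of all genes.

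In the wider list, 5 of 67 genes passed in MV4-11 KO, 7.46% beside the 5.41% of all genes, and 4 of these 5 act in receptor cleavage. PSEN2, a catalytic subunit of γ-secretase, rose from 1.86, 2.83 and 2.31 CPM to 4.55, 4.51 and 4.65 CPM (log2 fold change 0.98, SE 0.268, adjusted p = 0.0325 by edgeR). APH1B, another subunit, rose by 0.48 (SE 0.113). NCSTN, the subunit that binds substrates, fell from 55.6, 73 and 74.6 CPM to 47.2, 45.4 and 54.8 CPM (-0.46, SE 0.128), and FURIN, the protease that cuts the receptor precursor, fell by 0.50 (SE 0.14). The called γ-secretase genes thus did not share a direction. Without EV replicate 3 none of the 67 passed, and without EV replicate 1 there were 8. PSEN2 did not pass when any single library of the 6 was left out (adjusted p of 0.0505 to 0.131), and the other 3 genes each failed without EV replicate 2, EV replicate 3 and KO replicate 1.

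In THP-1 KO none of the 9 genes passed by edgeR or DESeq2, none had an unadjusted p under 0.05 by edgeR, and none had groups that did not overlap, where 0.0897% of all genes passed and 13.6% did not overlap. DTX4 was at 6.52, 6.28 and 6.16 CPM in EV and 4.94, 6.39 and 6.03 CPM in KO (-0.13, SE 0.193). NOTCH2 was at 303.6, 316.1 and 429.1 CPM in EV and 300.8, 317.3 and 369.3 CPM in KO (-0.09, SE 0.134). RBPJ, JAG1 and MIB1 were at 0.00, 0.07 and -0.04 on the log2 scale. HES1 had 9, 1 and 5 counts in EV and 6, 14 and 6 in KO (0.82, SE 0.469), which these counts cannot resolve. Of the 67 pathway genes none passed by edgeR or DESeq2 and 4 had an unadjusted p under 0.05 by edgeR, beside 1160 of all 14490 genes.

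Between MV4-11 and THP-1 the KO effect itself did not differ past the threshold for any of the 9 genes by edgeR or DESeq2, where 0.193% of all genes passed. For DTX4 the effect in THP-1 minus that in MV4-11 was -0.58 (SE 0.224), with an unadjusted p of 0.0158 and an adjusted p of 0.417 by edgeR. DTX4 was called in MV4-11 and not in THP-1, and the test of the difference did not separate them.

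In Molm-14 KO, the comparison from which DTX4 was picked, DTX4 had 63, 121 and 84 counts in EV and 264, 311 and 235 counts in KO. On the CPM scale these are 10.6, 13.6 and 11.1 against 41.6, 41.4 and 36.7, a fitted fold of 3.36 (log2 fold change 1.75, SE 0.133). It was between 1.69 and 1.88 on the log2 scale when single libraries were left out. This range comes from the libraries that chose the gene, so it is no independent check. The KO libraries of Molm-14 lay in the range of the MV4-11 EV libraries of that series, which were at 36.4 to 50.2 CPM. On the FPKM scale DTX4 was eighth of the 10 genes in Molm-14 EV and sixth in Molm-14 KO, at 6.65 ± 0.458 FPKM beside HES1 at 6.8 ± 0.676.

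The other genes were level or lower in Molm-14 KO. HES1 was at 16.5, 12.8 and 14 CPM in EV and 11.8, 10.6 and 9.69 CPM in KO (log2 fold change -0.42, SE 0.185). NOTCH2 was at 212.2, 298.0 and 233.7 CPM in EV and 207.8, 184.1 and 180.2 CPM in KO (-0.38, SE 0.136). DTX2, the other fitted Deltex gene of the 10, was at 8.24, 8.1 and 6.86 CPM in EV and 4.41, 6.65 and 6.09 CPM in KO (-0.42, SE 0.258).

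JAG1 was at 389.5, 383.5 and 377.5 CPM in EV and 370.8, 364.2 and 348.1 CPM in KO (-0.09, SE 0.0818), and MIB1 differed by -0.15 (SE 0.0709). RBPJ and MAML2 were at 0.06 and -0.11. Groups did not overlap for 6 of the 9 genes, 1 above (DTX4) and 5 below (JAG1, NOTCH2, MIB1, DTX2 and HES1), where 16.4% of all genes did not overlap, 8.39% above and 8% below. Of the 9 genes 1 was past the threshold, where 2.4% of all genes were, and nothing is read from these counts because this comparison chose the genes. The ligand JAG2, singled out after its values were seen, had 2, 1 and 0 counts in EV and 8, 14 and 7 in KO.

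**Figure D3:**
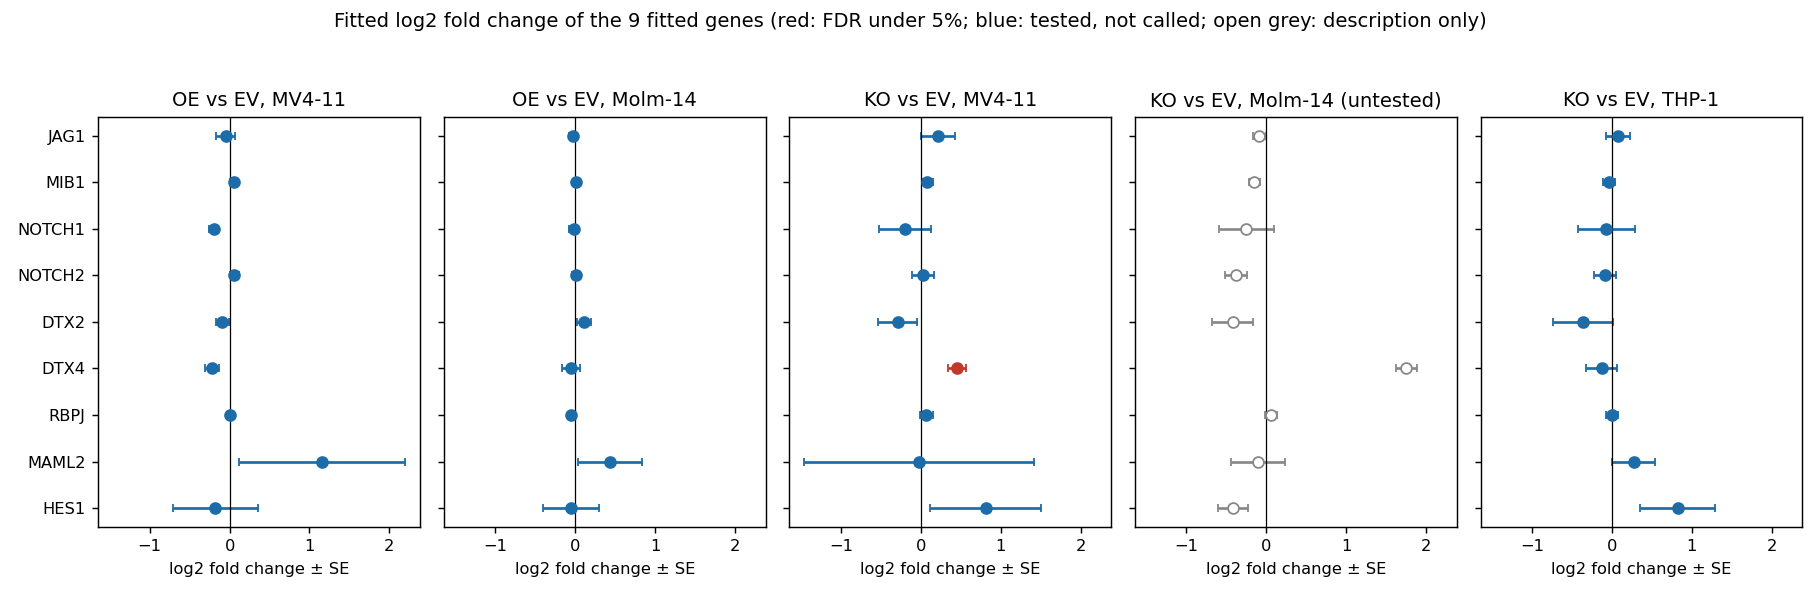
Fitted log2 fold change with its SE for the 9 fitted genes in the 5 comparisons within a line, red for genes called at 5% FDR, blue for genes tested and not called, and open grey for Molm-14 KO, which is a description. DTX4 stands at 0.45 in MV4-11 KO, 1.75 in Molm-14 KO and -0.13 in THP-1 KO, and the wide bars belong to genes with few counts such as MAML2 and HES1.

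DTX4 has a neighbor that bears on how its counts can be read. MPEG1, a macrophage gene for a pore-forming protein, runs toward it on the opposite strand, and the annotated genes share 79 bases at their ends (chr11:59208510-59208588). The library kit keeps strand, but whether the counting used it is not stated in the sources used here, so reads in the shared stretch cannot be assigned with certainty. MPEG1 was at 5.21, 6.53 and 3.82 CPM in Molm-14 EV and 11.3, 15.3 and 15.5 CPM in Molm-14 KO (log2 fold change 1.42), with 29 to 58 counts in EV and 72 to 115 in KO.

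In MV4-11 KO, MPEG1 differed by 0.23 (SE 0.124, not called), at 34.9, 33.4 and 37.5 CPM in EV and 43.7, 40.5 and 40.2 CPM in KO, and in THP-1 KO by 0.05 (SE 0.214). In MV4-11 OE both neighbors had a negative log2 fold change, and only that of MPEG1 was called. MPEG1 was at 63.6, 69 and 52.5 CPM in MV4-11 OE and 128.4, 129.7 and 134.1 CPM in EV (-1.08, SE 0.0794, adjusted p = 2.86e-07 by edgeR). DTX4 overlapped between the same libraries (-0.22, SE 0.0851). In Molm-14 OE neither was called (0.19, SE 0.147 for MPEG1 and -0.05, SE 0.11 for DTX4). The difference between the 2 genes was not tested. Between lines MPEG1 was lower than in MV4-11 in both Molm-14 EV (-5.08, SE 0.109) and THP-1 EV (-2.86, SE 0.164), as DTX4 was. What shared reads add to the DTX4 counts was not tested.

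**Figure D4:**
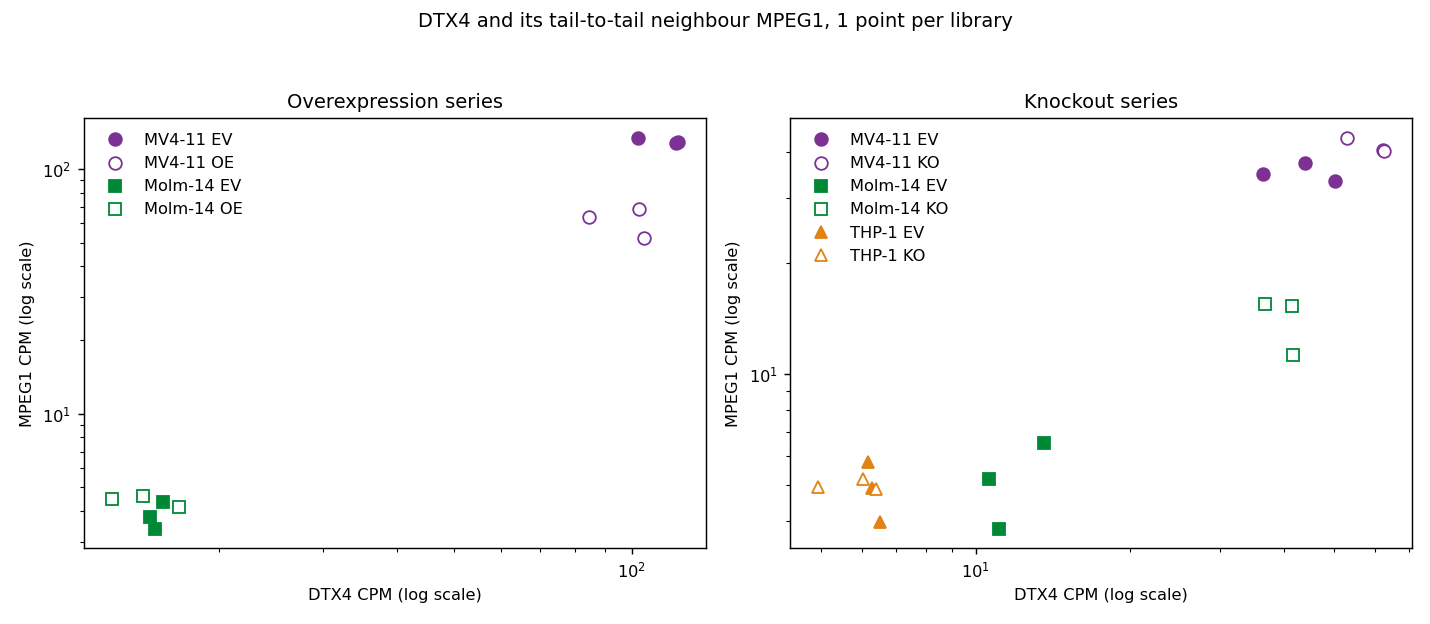
CPM of MPEG1 against CPM of DTX4 (both log scales) in each library, filled for EV and open for OE or KO, circles for MV4-11, squares for Molm-14 and triangles for THP-1. Molm-14 KO libraries lie above and to the right of Molm-14 EV libraries, and MV4-11 OE libraries lie below MV4-11 EV libraries.

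Genes whose log2 CPM tracked DTX4 over the 18 libraries of the knockout series were named as a description. Among 8675 genes that averaged 100 counts or more, Pearson's r was 0.969 for ATP10A, a lipid flippase, 0.958 for PDGFA, a growth factor, 0.956 for MIR155HG, the host transcript of miR-155, 0.948 for HERPUD1 and 0.945 for CD74, the invariant chain of HLA class II. The 18 points fall into 3 lines with different levels and share their libraries and depth. The 6 Molm-14 libraries from which DTX4 was picked are among them, so a rise of these genes in Molm-14 KO is no independent check. ATP10A was at 15.8, 20.4 and 16.9 CPM in Molm-14 EV and 27.1, 30.9 and 30.8 CPM in Molm-14 KO, and between 5.71 and 8.88 CPM in all THP-1 libraries.

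NOTCH1 varied in the knockout series between libraries of the same group, together with other genes of the wider list. In Molm-14 EV it was at 24.7, 48.8 and 26.8 CPM, and EP300, a nuclear coactivator of the wider list, was at 47.8, 108.5 and 65.1 CPM in the same libraries. In THP-1 EV, NOTCH1 was at 20.7, 29.3 and 45.5 CPM and EP300 at 57.5, 79.1 and 160.5 CPM. In 5 of the 6 groups the library with the most NOTCH1 was also the one with the most EP300, CREBBP and SPEN, and this held in 1 of 4 groups of the overexpression series.

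The SE of NOTCH1 was 0.324 to 0.352 in the KO comparisons and 0.0514 and 0.0521 in the OE comparisons, so the knockout series could not resolve a NOTCH1 difference as small as the -0.20 of MV4-11 OE. NOTCH2 was highest in the same library as NOTCH1 in 5 of 6 groups too, at 298.0 CPM in Molm-14 EV replicate 2 and 429.1 CPM in THP-1 EV replicate 3. The part of this library difference in the NOTCH1 and NOTCH2 values was not tested.

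**Figure D5:**
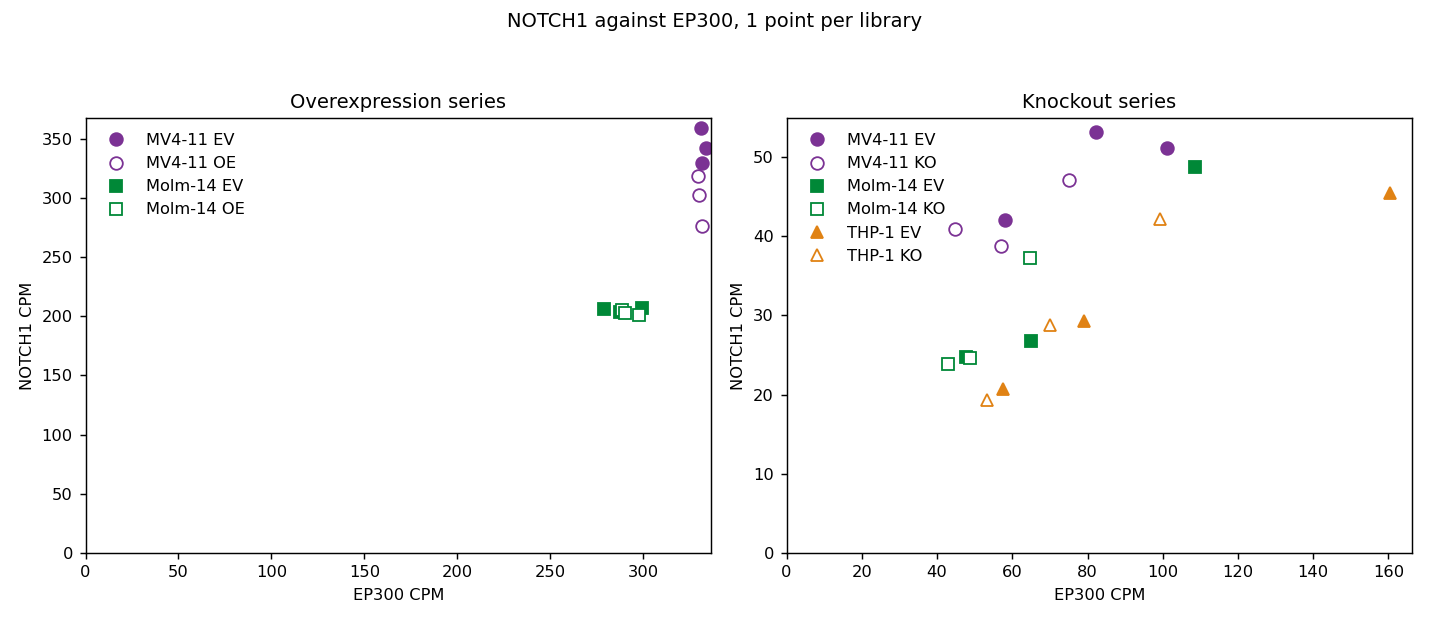
NOTCH1 CPM against EP300 CPM in each library, overexpression series at left and knockout series at right, filled for EV and open for OE or KO. In the knockout series the replicates of 1 group spread along a rising line, for example from 20.7 to 45.5 CPM of NOTCH1 in THP-1 EV, whereas Molm-14 libraries of the overexpression series stay between 201.4 and 207.0 CPM.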

How the data were processed

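RNA libraries were prepared by the authors with a stranded total RNA kit with ribosomal RNA depletion. Reads were trimmed with cutadapt 1.16, cleared of optical duplicates, aligned to GRCh38 with STAR 2.7.6a, and assigned to genes with featureCounts 1.6.3, and the deposited values are raw counts per gene, 1 table per series. The listed genes differ between the tables, so no level or test crosses them.

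Counts were filtered with filterByExpr (17542 and 14490 genes kept), scaled by TMM and fitted with edgeR 4.0.16 in R 4.3.3 (robust quasi-likelihood, all libraries of a series in 1 model). The fits were tested on simulated data. P-values were adjusted by Benjamini-Hochberg over all tested genes and called at 5%. Intervals of count ratios are 95% exact binomial and, like floors of 3 counts for a count of 0, cover counting error only. Replicate pairs all differed by more than sampling noise (chi-square per degree of freedom 1.5 to 15.8).

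The genes named are the 10 genes, MPC1, MIR133A1HG, copies and neighbors that share sequence with a member, called genes of a 78-gene pathway list (up to 3 per role and direction), and the 5 genes most like DTX4. MPEG1, EP300, CREBBP, SPEN, C12orf75, DTX1, DTX3L in each library and JAG2 in Molm-14 KO were singled out after their values were seen. A marker list and a gene of the pathway list are not reported here. Members and lists were chosen with earlier results of these data known. Alternatives were RLE scaling, no filter on low counts, DESeq2 1.42.0, a replicate block, only the compared groups, and leaving out each library.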

Additional observations from a re-analysis of the deposited data

Results flagged for a closer look

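Among the 9 fitted genes, HES1 was the one whose MPC1 KO and EV libraries did not overlap in MV4-11 or in Molm-14, and in opposite directions. Its log2 fold change was 0.81 in MV4-11 (SE 0.692), from 3, 2 and 1 counts in EV and 4, 4 and 3 in KO, and -0.42 in Molm-14, from 98, 114 and 106 counts in EV and 75, 80 and 62 in KO. The difference between the lines was not tested, because the Molm-14 comparison was used to choose the genes, and at these counts the MV4-11 value has a counting interval that includes no difference (ratio 1.8, 0.61 to 5.92).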

How the results depend on the processing

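Of 208 counts of called genes under the alternatives, 190 stayed within 1.5 times the reported count. With no filter on low counts, pathway genes called numbered 3 in MV4-11 OE (NOTCH1, 1 of the 9 genes, among them), 8 in MV4-11 KO and 2 in THP-1 KO, where 0, 5 and 0 were reported. DESeq2 called 1 pathway gene in MV4-11 OE. When only the compared groups were fitted, 1 pathway gene was called in Molm-14 OE and 3 in MV4-11 KO, and 0 of the 9 genes in MV4-11 KO. Leaving out 1 library at a time gave 0 to 1 pathway genes in MV4-11 OE (1 without EV replicate 3), 0 to 8 in MV4-11 KO and 0 to 1 of the 9 genes in MV4-11 KO. In MV4-11 KO the 67 pathway genes gave 8 calls without EV replicate 1, 1 without EV replicate 2, 0 without EV replicate 3, 1 without KO replicate 1 and 2 without KO replicate 2. The cause of these shifts was not tested. Of 1080 values of single genes, 1049 kept their side of the threshold, and no called value changed sign, while 55 uncalled values did. NOTCH1 passed between THP-1 and MV4-11 EV without THP-1 EV replicate 3 (-0.96, adjusted p = 0.0297 by edgeR), and DTX2 between Molm-14 and MV4-11 EV without MV4-11 EV replicate 1 (0.20, adjusted p = 0.0494 by edgeR). The main fits did not pair libraries by replicate number. In THP-1, KO and EV libraries of the same number deviated together, with correlations of 0.179, 0.0987 and 0.33. Signs were mixed in the other lines of either series, for example -0.191, 0.013 and -0.377 in MV4-11 of the overexpression series. The SE of NOTCH1 in THP-1 KO was 0.219 with a replicate block, beside 0.352 without it. With a replicate block 7 pathway genes were called in MV4-11 KO, DTX4 had an adjusted p of 0.00926 by edgeR, and no call among the 9 genes changed. Depth limited HES1 and MAML2 in MV4-11 and DTX3 in all lines.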
